A study of Mus musculus with 4 samples.

Results

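Broad macroH2A domains are described here, defined as islands of macroH2A ChIP-seq signal wider than 50 kb on chromosomes 1 to 19 except 15. An island is a run of enriched 600 bp windows that the caller joined over gaps of at most 1200 bp, listed with its ChIP reads. The myotube list held 399 such domains among 27089 islands of these 18 autosomes (1.47%), and the myoblast list held 356 among 27317 (1.3%). The members were chosen by their measured width in these lists, so width is a description and not a finding. Over all chromosomes the lists held 562 and 492 islands of this width.

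The study compared C2C12 cells, a mouse line of muscle precursors, at day 5 of differentiation medium (labelled myotube) and at day 0 (labelled myoblast). Both states came from the same line without a genetic change named in the labels, and differentiation was induced in confluent cells by changing from medium with fetal serum to medium with low horse serum. Chromatin was precipitated with an antibody to macroH2A, and the labels do not say which macroH2A form it recognises. Each state is 1 library, so no test of differentiation was possible and no p-value is given. Every difference below is one between 2 libraries, not a replicated effect of differentiation. The 2 input libraries of the series were not analysed here.

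MacroH2A is a variant of histone H2A with a large globular macrodomain outside the nucleosome core. It is known for long domains of repressed chromatin and for its enrichment on the inactive X chromosome, and it has also been found over some transcribed genes. One splice form, macroH2A1.1, binds ADP-ribose and its metabolites, and muscle differentiation is known to shift splicing towards that form. The study's title names macroH2A1.1 and nuclear NAD+ use as its subject.

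Broad domains made up a minor part of the islands and, being chosen for width, a larger part of the reads in islands. Their share of these reads was slightly above their share of the covered length. In myotubes they spanned 29.7 Mb, or 9.99% of the length covered on these chromosomes, and held 2982170 reads, or 11.7% of the island reads. In myoblasts they spanned 25.4 Mb, or 9.16% of the covered length, and held 2230338 reads, or 10.6%. The 18 autosomes held 25399974 island reads at day 5 and 20948587 at day 0, a ratio of 1.21, and whether this difference in reads moved the number of domains was not tested. The median domain was 65.4 kb wide with 6406 reads in the myotube list, and 63.0 kb wide with 5475 reads in the myoblast list. Counting error on the median domain's reads was therefore 1.25% and 1.35%, small beside the differences between domains given below.

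Most domains sat close to the width limit, and few were far above it. At day 5, 271 domains were up to 75 kb wide, 83 were between 75 and 100 kb and 45 were over 100 kb. At day 0 the same classes held 255, 63 and 38 domains. The limit cuts through a continuous range of widths. The narrowest members in both lists were 50.4 kb wide, 1 window above the widest islands left out, at 49.8 kb. On chromosome 1 the day 5 domain at chr1:186085801-186136200 (mm9) was among the narrowest members, and the day 5 island at chr1:186034201-186084000 was among the widest left out. They lay next to each other with read densities of 101 and 89.0 reads per kb.

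**Figure D1:**
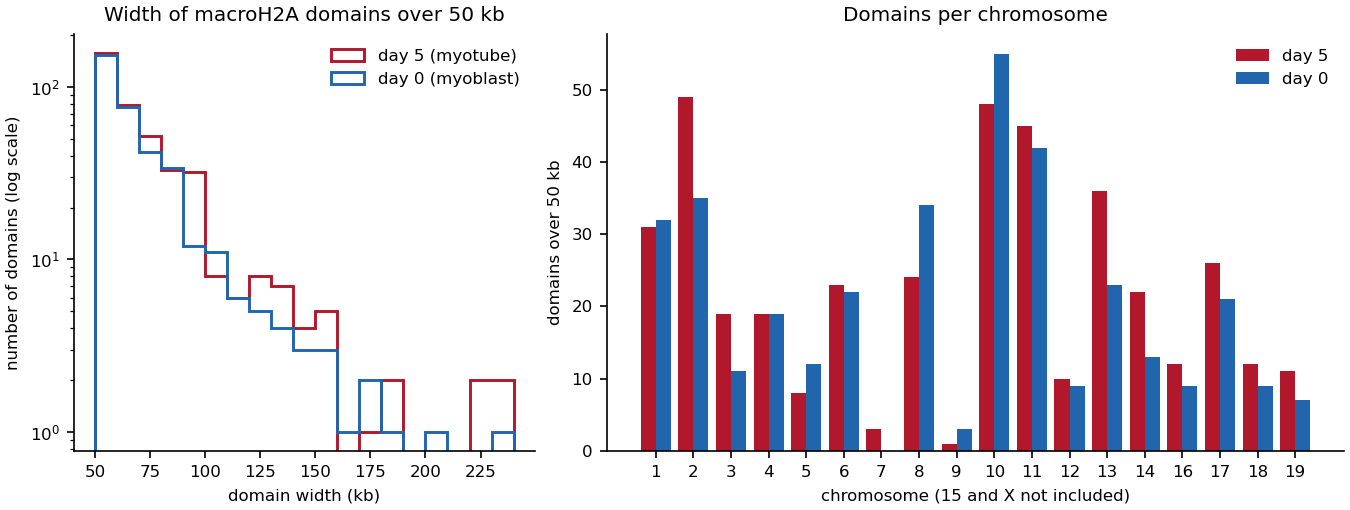
Left, number of macroH2A domains over 50 kb per 10 kb of width, on a log scale, at day 5 (red) and day 0 (blue). Right, number of domains on each of the 18 autosomes. Chromosomes 2 and 13 held more domains at day 5, with 49 and 36 against 35 and 23, and chromosomes 8 and 10 held more at day 0.

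Domains held more reads per kb than narrower islands in both libraries. Their median density was 97.7 reads per kb at day 5, against 87.5 for islands of 20 to 50 kb and 80.6 for all islands of these chromosomes. At day 0 the medians were 84.7, 76.9 and 72.7 reads per kb. Single domains ranged from 77.8 to 168 reads per kb at day 5 and from 66.9 to 131 at day 0. Within the domains, density was weakly related to width, with a Spearman correlation of 0.24 across the 399 domains of day 5 and 0.24 across the 356 of day 0. Islands of 20 to 50 kb had similar values, 0.26 and 0.25, and over all islands the correlation was negative, at -0.07 and -0.16. Domains of a list share a library and a caller threshold, so these correlations are descriptions. Domains over 100 kb had medians of 105 reads per kb at day 5 and 90.4 at day 0, and those up to 75 kb had 95.9 and 83.3.

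The densest domains of both days included a pair on chromosome 11. At chr11:51672001-51729000 the day 5 domain held 168 reads per kb (95% Poisson interval 164.9 to 171.7), and the day 0 domain at chr11:51671401-51729000 held 129 (125.9 to 131.8). Its neighbour at chr11:51730801-51781200 had the same borders at both days, with 137 reads per kb at day 5 and 112 at day 0. The break of 1800 bp between them, the smallest that the lists contain, was in the same place in both libraries. Intervals on densities cover counting error only.

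The first comparison was how much of each broad domain was also covered by islands of the other day. Almost all domains met an island of the other list, 397 of 399 at day 5 (99.5%, exact binomial interval 98.2 to 99.9%) and 355 of 356 at day 0 (99.7%, 98.4 to 99.99%). Among all islands of these chromosomes 68.5% and 72.3% did. The median day 5 domain was covered over 90.7% of its length by day 0 islands, and the median day 0 domain over 93.0% by day 5 islands. At least 90% of the length was covered in 209 day 5 domains (52.4%, 47.4 to 57.4%) and in 204 day 0 domains (57.3%, 52.0 to 62.5%), with all islands at 28.9% and 37.5%. Islands of 20 to 50 kb stood between, at 31.7% and 43.5%. Complete cover was less frequent in domains, at 40 day 5 domains (10.0%, against 22.5% of all islands) and 58 day 0 domains (16.3%, against 31.3%). The intervals treat domains as separate draws. Wide islands also meet others more easily by their length alone, which these shares do not correct for.

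Domains with little cover at the other day were few. Under 50% of the length was covered in 17 day 5 domains and 25 day 0 domains, which is 4.26% and 7.02%, against 42.7% and 37% of all islands. The day 5 domain at chr17:30766201-30891600, 125 kb wide with 12814 reads, met no listed day 0 island. The nearest ones lay 628 kb to its left and 259.8 kb to its right. It was isolated at day 5 too, with the nearest day 5 islands 626 kb and 447 kb away. The day 5 domain at chr18:33230401-33285600 also met none, but day 0 islands lay 75 kb and 7.2 kb from it. In myoblasts the domain without a counterpart was at chr10:119838001-119903400, with day 5 islands 50.4 kb and 12.6 kb away. A missing island means only that no listed row overlapped, and rows may be missing from a list.

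Other domains kept a small core at the other day. The 79.2 kb day 5 domain at chr19:4648201-4727400 overlapped a single 12.6 kb day 0 island inside it, and reached 28.8 kb farther out on the left and 37.8 kb on the right. The day 5 domain at chr8:84376201-84426600 held a 6.0 kb day 0 island and the one at chr10:89025601-89095200 an 18 kb one. In the opposite direction, 2 day 5 islands at chr2:143881201-143967600 covered 11.8% of an 86.4 kb day 0 domain. They began in the window of its left border and ended 57.6 kb short of its right border, so this was an edge and not a core. At chr17:15306001-15374400 a 68.4 kb day 0 domain overlapped a single 12.6 kb day 5 island, which ended 21.0 kb and 34.8 kb inside its borders. Both directions, wider at day 5 and wider at day 0 around a small shared core, thus occurred in the same pair of libraries.

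The second comparison was whether a domain was continuous at the other day or broken into pieces. Most broad domains corresponded to several islands in the other list. Of the day 5 domains, 318 (79.7%, 75.4 to 83.5%) overlapped 2 or more day 0 islands, and of the day 0 domains, 258 (72.5%, 67.5 to 77.0%) overlapped 2 or more day 5 islands. The shares over all islands were 14.1% and 11.4%, and over islands of 20 to 50 kb 59.1% and 50.7%. Counting only pieces of at least 5 kb inside the domain, the shares were 73.4% at day 5 and 64.0% at day 0, with all islands at 5.49% and 3.99%. A domain chosen as wide in one list is by that choice more often narrower in the other, so the high share in each direction was partly built into the selection. The wider the island, the more pieces it can meet.

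The breaks were mostly short. Between the day 0 pieces of day 5 domains there were 767 gaps with a median of 1.8 kb, and 386 of them (50.3%) had the smallest length possible, 1800 bp. Between the day 5 pieces of day 0 domains there were 579 gaps with a median of 2.4 kb, and 263 (45.4%) had the smallest length. Gaps up to 5 kb made up 83.6% and 78.8%. Gaps over 20 kb numbered 3 and 6. Each of these gaps lies inside a domain of the other day, which limits its length. Short gaps were also frequent over all islands, whose median gap to the nearest island was 3.6 kb at day 5 and 3 kb at day 0. That is another measure, and gaps inside narrower islands were not measured. Joining islands up to 5 kb apart in both lists gave 1309 domains at day 5 and 1207 at day 0, and 55.8% and 52.3% of these were still split. How many islands pass 50 kb thus depended on whether gaps of a few windows were joined.

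**Figure D2:**
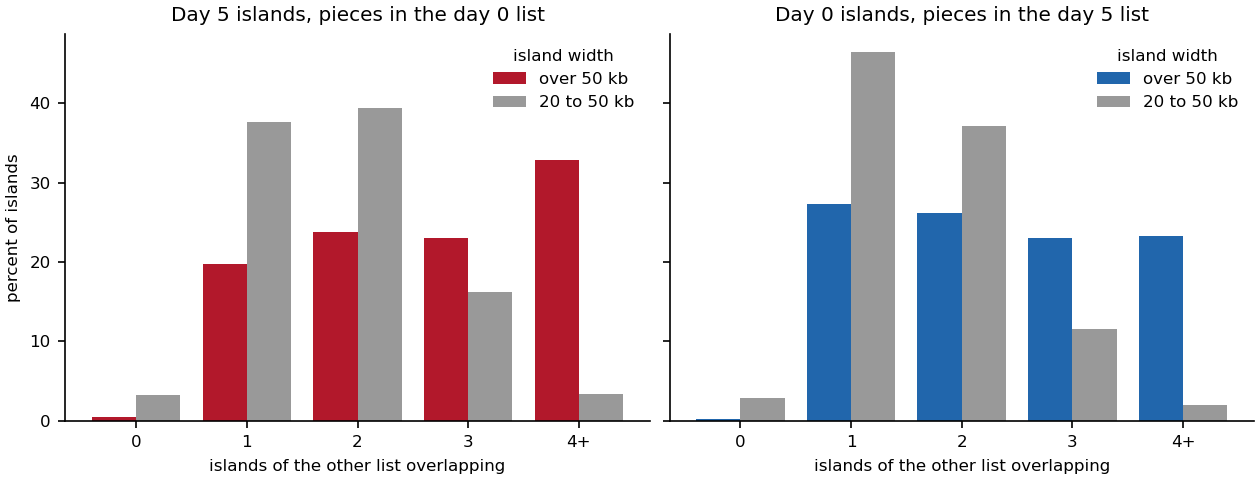
Percent of islands that overlapped 0, 1, 2, 3 or at least 4 islands of the other day's list, for domains over 50 kb (coloured) and islands of 20 to 50 kb (grey). At least 4 day 0 islands were met by 32.8% of day 5 domains, and at least 4 day 5 islands by 23.3% of day 0 domains.

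Pieces and read density went together at the other day. Day 5 domains that overlapped a single day 0 island (79 domains) had a median density of 103 reads per kb at day 5 and 88.3 at day 0. Those that met at least 4 day 0 islands (131 domains) had 96.3 reads per kb at day 5 and 78.5 at day 0. The reverse comparison had the same form. Day 0 domains with a single day 5 island (97 domains) had 103 reads per kb at day 5 and 87.5 at day 0, and those with at least 4 (83 domains) had 85.5 at day 5 and 83.8 at day 0. Domains that were broken up at a day were thus less dense at that day, while their density on the day they were whole varied less. Pieces and density are read from the same signal, since islands end where windows are not enriched, so this link is partly built in. The same medians were not computed for narrower islands.

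The most broken day 5 domain was also the widest, at chr1:71861401-72099000. It was 238 kb wide with 24425 reads, and 10 day 0 islands covered 84.6% of it, the widest being 36.6 kb. Its outer borders were nearly the same at both days, with the day 0 pieces starting 0.6 kb inside the left border and ending at the right border. Density over the shared stretches was 103 reads per kb at day 5 and 78.4 at day 0. This raw ratio was 1.31-fold, against a median of 1.14-fold over all shared stretches of these chromosomes. For this domain the difference between days thus lay inside the borders, but it was not limited to this domain. The neighbouring day 5 domains on either side were also in pieces at day 0. Over chr1:71766001-72172200, 3 day 5 islands covered 99.1% of the span and 16 day 0 islands covered 84.8%. The 97.2 kb domain at chr12:36320401-36417600 met 9 day 0 islands that covered 71.0%, and the 97.8 kb domain at chr16:92930401-93028200 met 9 that covered 77.3%. The 222 kb domain at chr2:117395401-117617400 met 8 day 0 islands, and its density was 116 reads per kb at day 5 and 81.2 at day 0 (1.42-fold in raw reads).

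In the opposite direction, the most broken day 0 domain was at chr1:135048601-135230400. It was 182 kb wide with 15051 reads, and 13 day 5 islands, none over 16.8 kb, covered 56.4% of it. Density over the shared stretches was 75.7 reads per kb at day 5 and 82.8 at day 0. Relative to the 1.14-fold median ratio of all shared stretches, this was a log2 ratio of -0.31. The 207 kb day 0 domain at chr10:36934201-37141200 met 12 day 5 islands, which covered 87.0% of it and reached 7.2 kb and 7.8 kb beyond its borders. Its density hardly differed in raw reads, at 87.3 per kb at day 5 and 86.4 at day 0, and its relative log2 ratio was -0.17. At chr1:91223401-91350600 and chr2:157999201-158105400, day 0 domains of 127 and 106 kb were met by 8 day 5 islands each whose outermost borders lay in the same windows. At these 2 loci the pieces of day 5 and the whole domain of day 0 had common outer borders.

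**Figure D3:**
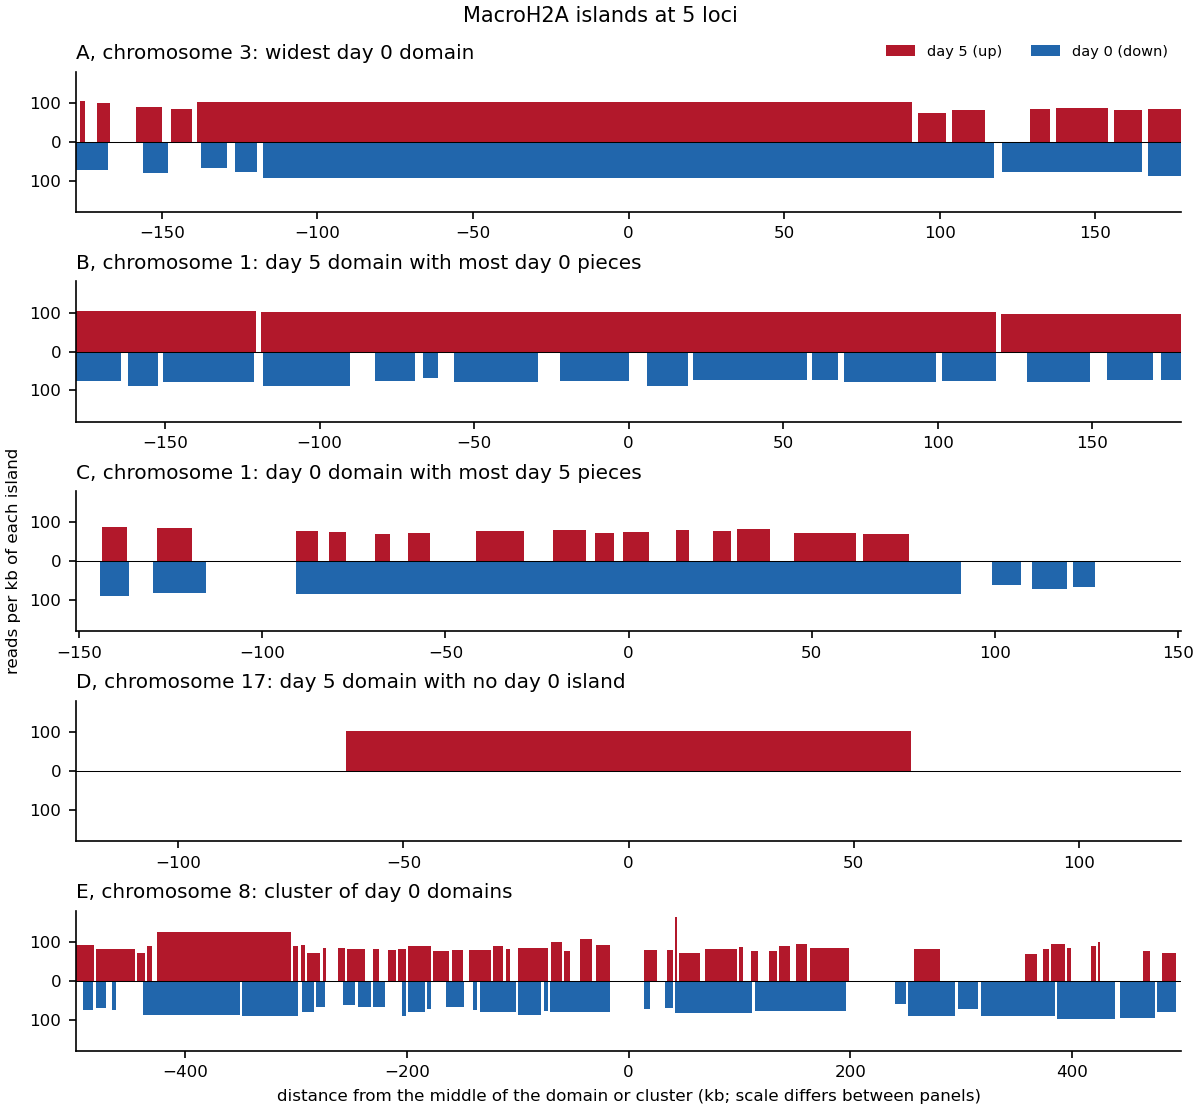
Islands of day 5 (red, upward) and day 0 (blue, downward) at 5 loci, drawn to scale as distance from the middle of the domain or cluster in kb, with bar height giving the mean reads per kb of each island. Shown are the widest day 0 domain on chromosome 3 (A), a 238 kb day 5 domain met by 10 day 0 islands (B), a 182 kb day 0 domain met by 13 day 5 islands (C), a 125 kb day 5 domain with no day 0 island (D) and a cluster of 6 day 0 domains on chromosome 8 (E).

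The third comparison concerned borders. To treat both days alike, overlapping islands of both lists were chained into joint loci, and a locus was kept if it held at least 1 broad domain. There were 552 such loci with a median span of 75.6 kb. A domain over 50 kb was present at day 5 only in 215 loci (38.9%), at both days in 162 (29.3%) and at day 0 only in 175 (31.7%). Together the loci held 1349 islands covering 44.6 Mb at day 5 and 1543 islands covering 44.1 Mb at day 0. Covered length was thus nearly equal, and in total the loci held fewer islands at day 5. The selection enters this total, since more loci were kept through day 5 only. Those had medians of 1 island at day 5 and 4 at day 0, and loci kept through day 0 only had 3 and 1. Loci with a domain at both days had medians of 2 and 2. Day 5 had fewer islands in 263 of the 552 loci and more in 195. Among all joint loci of these chromosomes with islands at both days, 16.8% had fewer and 11.6% had more.

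Borders of single domains were first set against the outermost border of the other day's pieces. Of the borders of day 5 domains, 255 of 794 (32.1%) lay within 600 bp, with all islands at 31.5%, and of those of day 0 domains 211 of 710 (29.7%), with all islands at 29.6%. Within 3 kb the shares were 51.1% (all islands 58.4%) and 47.9% (all islands 55%). Both borders lay within 600 bp in 47 day 5 domains (11.8%, all islands 11%) and 41 day 0 domains (11.5%, all islands 9.69%). These shares were near those of all islands. Borders of day 5 domains lay over 3 kb farther out at day 5 in 16.2% and at day 0 in 32.6%, with all islands at 12.2% and 29.4%. For day 0 domains the shares were 38.2% and 13.9%, with all islands at 35.8% and 9.2%. Since pieces may reach beyond the domain, this measure by its construction favours the other day's border as the farther one.

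Outer borders of the joint loci treat the days alike. Their share of coinciding borders was higher partly by construction, since chaining drops borders that lie inside an island of the other list. Over all islands the borders within 600 bp numbered 11698 by either measure. They were counted out of 37132 day 5 borders, 39482 day 0 borders and 29458 locus borders. Of 1098 borders in the 549 loci present at both days, 500 (45.5%) lay within 600 bp of each other, against 39.7% for all joint loci. Borders lay more than 3 kb farther out at day 5 in 170 cases (all loci 15.3%) and more than 3 kb farther out at day 0 in 139 (all loci 12.3%). Shifts of more than 20 kb at these outer borders numbered 8 outward at day 5 and 15 outward at day 0. Chaining also drops shifted borders that lie inside an island of the other list, so large shifts are undercounted here. Their share over all joint loci was not computed. Where both days had a broad domain, the median shift was 0 at the left and at the right border, and 2 of 324 borders moved by more than 20 kb, both outward at day 5. Loci with a broad domain at only 1 day leaned towards that day, as the selection makes likely. In the loci with a broad domain at day 5 only, 109 borders lay over 3 kb farther out at day 5 and 19 at day 0. In the loci with one at day 0 only, the numbers were 23 and 96.

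**Figure D4:**
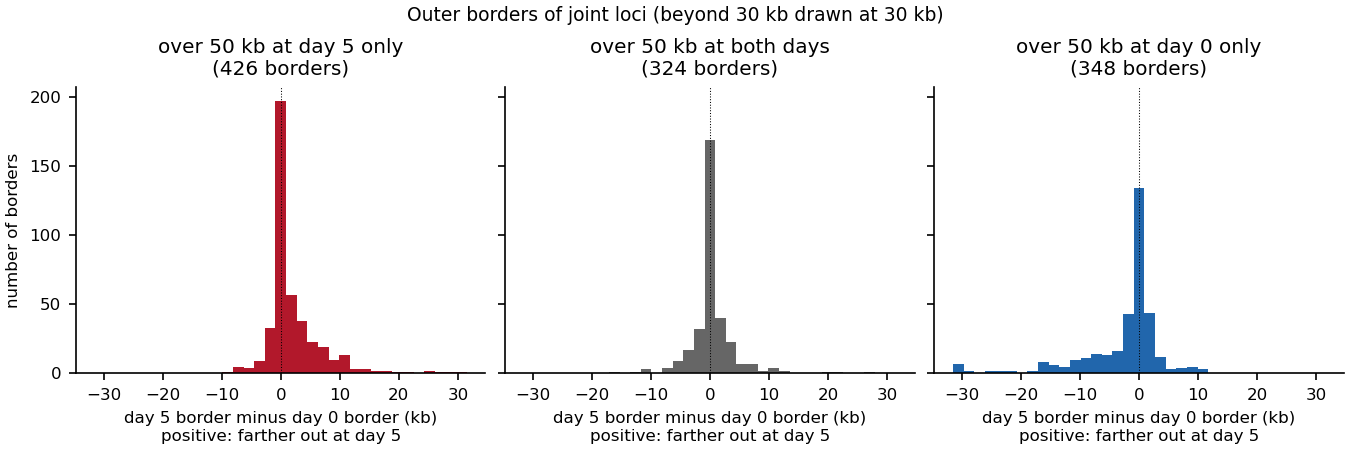
Number of outer locus borders by the position of the day 5 border relative to the day 0 border in kb, in bins of 3 windows, for loci with a domain over 50 kb at day 5 only, at both days and at day 0 only. Positive values lie farther out at day 5. The central bin, shifts up to 600 bp, holds 197, 169 and 134 borders.

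A minority of domains had the same borders at both days. Of the broad domains, 178 of day 5 (44.6%) and 177 of day 0 (49.7%) overlapped a domain over 50 kb of the other day, against 3.39% and 4.19% of all islands. In 131 pairs each domain covered at least 50% of the other. Their day 5 members had a median of 70.8 kb and their day 0 members one of 67.2 kb, with day 5 wider in 68, day 0 wider in 52 and equal width in 11. Of their 262 borders, 75 (28.6%) lay within 600 bp, against 42.8% among all island pairs with this overlap. More than 20 kb farther out lay 33 of the 262 at day 5 and 22 at day 0, a count not made over all pairs. At the same percent of overlap wider pairs can differ by more kb, so these shares do not correct for width. Both borders lay within 600 bp in 14 of the 131 pairs and in the same windows in 5, with no such count over all island pairs. The 5 were chr5:125661001-125711400, chr10:66273601-66382800, chr10:85704001-85762800, chr11:51730801-51781200 and chr13:34745401-34841400. Their widths in that order were 50.4, 109, 58.8, 50.4 and 96.0 kb. The widest, on chromosome 10, held 123 reads per kb at day 5 and 103 at day 0.

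The widest domains of chromosomes 3 and 16 shifted along the chromosome instead. On chromosome 3 the day 5 domain chr3:52285201-52515000 and the day 0 domain chr3:52306201-52541400 overlapped over most of their length. The day 5 domain started 21.0 kb farther left than the day 0 domain and ended 26.4 kb short of its right border. On chromosome 16 the day 5 domain chr16:29852401-30038400 (186 kb, 18662 reads) and the day 0 domain chr16:29886601-30063000 (176 kb, 18628 reads) were offset in the same way. In both cases day 5 islands covered at least 97.2% of the day 0 domain, because neighbouring islands filled the rest. The covered area was thus nearly the same at both days, and the place of the break between neighbouring islands differed.

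Domains that paired with exactly 1 island, itself meeting no other, were a minority, 41 at each day (10.3% and 11.5%, against 36.3% and 36% of all islands). In 34 of the 41 the counterpart was also over 50 kb. The net border change was outward at day 5 in 19 of the 41 day 5 domains, inward in 12 and zero in 10. At chr17:79936801-79991400 the day 5 domain reached 3.0 kb farther on the left and 14.4 kb on the right. At chr8:107906401-107993400 it started 13.2 kb inside the day 0 border and ended 4.2 kb beyond it. No common direction was seen in this group.

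The fourth comparison was read density over stretches covered at both days. The day 5 to day 0 ratio of reads per kb had a median of 0.19 on the log2 scale (1.14-fold) over all shared stretches of these chromosomes, and ratios below are relative to it. The medians of the domains lay close to it, and their direction depended on the processing. The median relative log2 ratio was 0.07 ± 0.15 over the 397 day 5 domains and -0.05 ± 0.18 over the 355 day 0 domains (SD between domains), although scaling to all island reads turned the day 5 median to -0.03 and took the day 0 median to -0.15. With islands up to 5 kb apart merged, the medians were 0.0074 for day 5 and 0.00078 for day 0 domains, the second a change of sign. All islands had medians of -0.02 and -0.01. Loci with broad domains at both days, which the width rule chose alike in both lists, had a median of 0.03 ± 0.15 (SD, 162 loci). Without input, read density cannot tell more macroH2A from more DNA at a locus.

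Large density differences were uncommon in the domains. A relative log2 ratio over 0.3 (1.23-fold) was found in 24 day 5 domains (6.05%, against 6.7% of all day 5 islands) and 10 day 0 domains (2.82%, against 6.78%). A ratio under -0.3 was found in 8 day 5 domains (2.02%, against 8.4%) and 32 day 0 domains (9.01%, against 8.61%). None of these shares stood far above those of all islands. In the joint loci, 21 of 549 had a ratio over 0.3 (all loci 5.74%) and 27 had one under -0.3 (all loci 7.34%). In the 131 pairs of overlapping domains these numbers were 7 (all pairs 6.08%) and 2 (all pairs 5.36%). Day 5 and day 0 densities were correlated across domains, with a Spearman correlation of 0.60 for the 397 day 5 domains and 0.53 for the 355 day 0 domains. The domains of a day share their libraries, so no p-value is given.

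The domains with the highest relative density at day 5 lay on several chromosomes. At chr19:34492801-34558200 the day 5 domain held 138 reads per kb (135.1 to 140.8), and the day 0 domain with the same left border held 85.0 (82.7 to 87.3), a relative log2 ratio of 0.51. At chr1:62450401-62517600 the values were 144 reads per kb at day 5 and 88.5 at day 0 (0.51). At chr13:34745401-34841400, whose borders were identical at both days, the values were 155 and 102 (0.41). The domains on chromosomes 19 and 13 had equal or nearly equal borders at both days, while the day 5 domain on chromosome 1 began 19.8 kb inside the outermost day 0 border. Further ones were chr10:21499801-21558600, with 133 reads per kb at day 5 and 83.1 at day 0, chr13:30709801-30790800 with 117 and 73.1, and chr2:79357201-79474800 with 128 and 80.3. The day 0 value on chromosome 10 was the mean of a 168 kb island that reached 7.8 kb and 101.4 kb beyond the domain. It is therefore not the density of that stretch alone.

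Lower density at day 5 was marked in a stretch of chromosome 1. The day 0 domain at chr1:135899401-135967200 was among the densest of its list, with 95.04 reads per kb at day 5 and 125 at day 0 (-0.58). The day 5 value is a mean over 2 day 5 islands. The wider of these, chr1:135919801-135969600, was just outside the width limit at 49.8 kb and held 99.0 reads per kb. The day 0 domain next to it, at chr1:135732601-135879000 (146 kb), had 105 reads per kb at day 5 and 120 at day 0 (-0.38). At day 5 it corresponded to the domains chr1:135753601-135804600 and chr1:135806401-135879000 and 1 further island. The lowest ratio was at chr2:143881201-143967600, with 69.0 reads per kb at day 5 and 96.0 at day 0 (-0.66), where day 5 islands covered the 11.8% given above. Other low domains were chr4:107262601-107317800 (94.1 and 120 reads per kb), chr6:72129601-72183600 (80.1 and 101) and chr8:125203201-125280600 (82.8 and 104). Day 5 islands covered 91.3%, 45.6% and 15.5% of these domains, in that order. Their day 5 values come from islands over those parts only, and their day 0 values are means of whole domains. On chromosome 18, chr18:61153201-61204200 had the highest density of any day 0 domain, with 107 reads per kb at day 5 and 131 at day 0 (-0.48). Its day 5 value was the mean of an 82.8 kb island that reached 31.8 kb farther left.

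**Figure D5:**
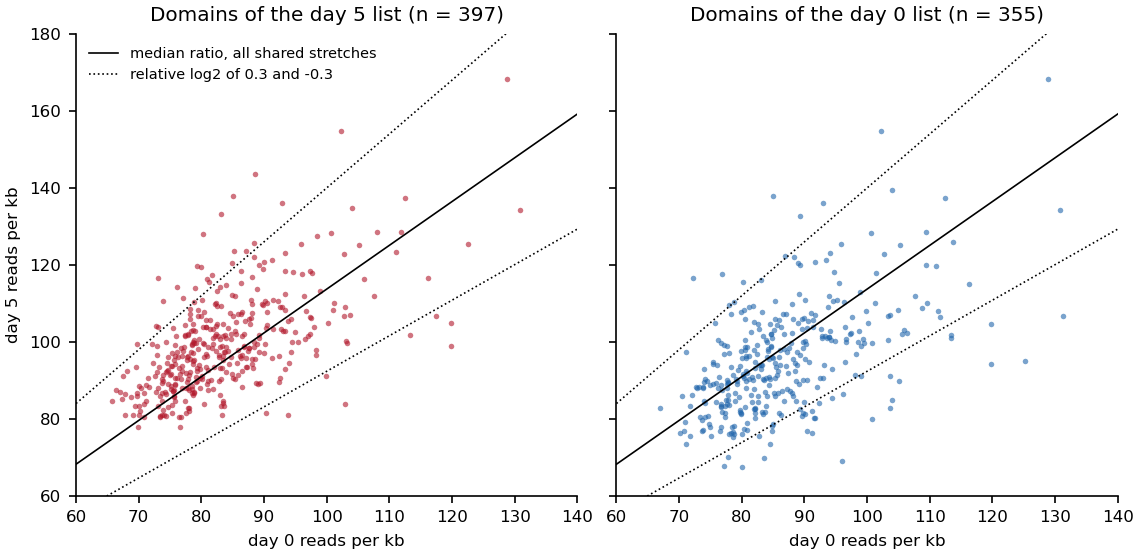
Reads per kb at day 5 (vertical) and day 0 (horizontal) over each broad domain and the islands of the other list beneath it, for the 397 day 5 domains and the 355 day 0 domains with a counterpart. Most points lie between the dotted lines at a relative log2 ratio of 0.3 and -0.3, with 24 day 5 domains above them and 8 below.

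The fifth comparison was where broad domains lay along the chromosomes. Chromosomes 2, 10 and 11 held 142 of the day 5 domains (35.6%) and 132 of the day 0 domains (37.1%). They also held 26.1% of all islands at day 5 and 25.6% at day 0, and 28.5% and 28.8% of the covered length, so much of their share of domains was also found over all islands. Per 10 Mb of span, chromosome 10 had 3.696 domains at day 5 and 4.23 at day 0, and chromosome 11 had 3.69 and 3.45. Chromosome 7 had 3 domains at day 5 and none at day 0, where its widest island was 31.2 kb, and chromosome 9 had 1 and 3. The order of the chromosomes by number of domains was much the same at both days (Spearman 0.93 across 18 chromosomes).

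The balance between days differed between chromosomes. More domains were listed at day 5 on 12 chromosomes, fewer on 5, and chromosome 4 had 19 at both days. Chromosome 2 had 49 at day 5 and 35 at day 0, chromosome 13 had 36 and 23, and chromosome 14 had 22 and 13. On chromosome 8 there were 24 at day 5 and 34 at day 0, on chromosome 10 48 and 55, and on chromosome 5 8 and 12. The length in domains differed accordingly, with 2.87 Mb at day 5 and 1.64 Mb at day 0 on chromosome 13, and 1.86 and 2.42 Mb on chromosome 8. On chromosome 17 domains made up 16.1% of the covered length at day 5 and 12.3% at day 0, the highest share at day 5. Chromosome 10 had the highest share at day 0, with 12.5% at day 5 and 14.7% at day 0.

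Splitting was also counted by chromosome. The split share was higher in day 5 than in day 0 domains on 11 of the 17 chromosomes with domains at both days, lower on 4 and equal on 2. It did not follow the balance of domain numbers throughout. Chromosome 3 had more domains at day 5, of which 16 of 19 were split, against 10 of 11 day 0 domains, and on chromosome 18 the numbers were 8 of 12 and 6 of 9. On chromosome 13, 29 of 36 day 5 domains were in pieces at day 0, and 11 of 23 day 0 domains were in pieces at day 5. On chromosome 19 the numbers were 9 of 11 and 3 of 7. On chromosome 8, 16 of 24 day 5 domains and 25 of 34 day 0 domains were split, and on chromosome 10, 33 of 48 and 40 of 55. In joint loci of chromosome 13, day 5 had fewer islands in 25 of 40 and more in 8, and on chromosome 8 fewer in 12 of 38 and more in 19. On chromosome 13, 20 loci were kept through day 5 only and 6 through day 0 only, and on chromosome 8, 7 and 16. Chromosome 13 loci covered 3.84 Mb at day 5 and 3.55 Mb at day 0, and those of chromosome 8 covered 3.31 and 3.401 Mb. With 1 library a day, these differences between chromosomes have no replicate check.

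Domains also lay near each other. At day 5, 232 of 399 (58.1%, 53.1 to 63.0%) had another domain within 500 kb, and at day 0, 208 of 356 (58.4%, 53.1 to 63.6%). Neighbours count each other, so these intervals, which treat domains as separate draws, are likely too narrow. The share depends on the number of regions, and it was 88.6% and 88.7% for the more numerous islands of 20 to 50 kb and 99.6% and 99.7% for all islands. The median gap to the nearest other domain was 292 kb at day 5 and 278 kb at day 0. Linked at up to 500 kb, the domains formed 85 clusters of at least 2 at day 5 and 74 at day 0, of which 15 and 16 held at least 4. The surroundings were measured as well. In the 500 kb on both sides of a domain, the median share of length covered was 37.5% at day 5 around day 5 domains and 37.7% at day 0 around day 0 domains. The other day's islands covered 36.4% and 36.8% of the same flanks. Over the whole span of these chromosomes 12.6% was covered at day 5 and 11.7% at day 0, and the flanks of narrower islands were not measured.

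Clusters differed in how far they were shared. On chromosome 6, chr6:99828601-100515000 held 6 domains at day 5 and 5 at day 0, with 83.4% and 86.5% of the span covered. On chromosome 13, chr13:51945001-52917000 held 6 at day 5 and 4 at day 0, with 85.6% and 84.6% covered. On chromosome 11, chr11:111596401-112875600 held 6 at day 5 and 1 at day 0, with 83.8% and 68.8% covered. Chromosome 1 had 6 domains at day 5 and 3 at day 0 in chr1:185577001-186622200, with 83.0% and 75.1% covered. Among day 0 clusters, chr1:91899601-93632400 held 6 domains at day 5 and 7 at day 0, and chr10:95028001-96271200 held 5 and 6. The cluster at chr8:10558201-11434800 stood at the other end, with 1 domain at day 5 and 6 at day 0, and with 61.3% and 79.7% of its span covered. Its islands numbered 41 at day 5 and 25 at day 0.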

How the data were processed

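One macroH2A ChIP-seq library of C2C12 cells was available for day 5 and one for day 0. For each, the authors deposited a list of islands whose last column holds whole-number counts of reads, with no sign of scaling. SICER 1.1, MACS 1.4.2, Bowtie2 2.2.6 and CASAVA 1.4 are given with the build mm9, per the submitters' processing notes, but their roles are not. The deposited lists are named for 600 bp windows, 1200 bp gaps and an FDR of 0.01. Use of input as control and duplicate handling are not given in the sources used here.

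Islands on chromosomes 1 to 19 except 15 were compared between lists by overlap of at least 1 bp. A piece is an overlapping island of the other list. A border shift is the distance to the outermost border of the pieces. Density is reads per kb, taken as uniform within an island. Log2 ratios were centred on the length-weighted median over all shared stretches, and 0.3 was used as the limit for a difference. Shares have exact (Clopper-Pearson) 95% intervals and densities exact Poisson intervals, which cover counting error only. Chromosome span was taken up to the last island of either list. The code was tested on simulated lists. The members, rules and comparisons were chosen with earlier results of these data known.

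Regions were named by rule: per library the 5 widest, densest and narrowest domains, the 5 widest islands left out, the 5 least covered and most split, the 5 highest and lowest density ratios, the 5 largest border changes each way, and the 3 clusters with most domains. Not every region the rule gives is printed. Equal-border pairs, a further cluster of equal size, and chr1:135753601-135804600 with its neighbours were described after their values were seen. The gene and sequence tables at hand were for another build (GRCm38), so genes in domains and sequences are not reported. Software was matplotlib 3.10.9 for plots, and SciPy 1.17.1, pandas 2.3.3 and NumPy 2.4.6 under Python 3.11.15 for values.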

Additional observations from a re-analysis of the deposited data

How the results depend on the processing

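Of 110 recomputed values, 59 stayed within the tolerance (the exact 95% interval, or 1.5 times for counts), 49 moved and 2 changed sign. Leaving out the 25% least dense islands, taking equal numbers of the widest islands or using whole overlapping islands for density moved none. Values are given for day 5 and then day 0. A width limit of 40 kb gave 711 and 603 domains, median widths of 52.2 and 52.8 kb, 46.4% of day 5 domains covered over at least 90%, and 70.2% and 66.0% with another domain within 500 kb. A limit of 100 kb gave 45 and 38 domains of 132 and 122 kb, of which 97.8% and 100% were met and 62.2% and 73.7% covered over at least 90%. There 88.9% of day 5 domains were split, 39.8% and 43.4% of borders lay within 600 bp, the median relative log2 ratios were 0.12 and -0.079, and 8.89% and 10.5% had a neighbour. Merging islands up to 5 kb apart gave 1309 and 1207 domains of 73.2 kb each, with 38.7% and 45.7% covered over at least 90%, 55.8% and 52.3% split, 25.4% and 25.2% of borders within 600 bp, and 77.8% and 79.0% with a neighbour. The median relative log2 ratios became 0.0074 and 0.00078, the second a change of sign. Scaled to all island reads they were -0.026, a change of sign, and -0.15. A match at 50% of the length lowered the domains met to 95.7% and 93.0%, and pieces of at least 5 kb lowered the split share to 73.4% and 64.0%. Borders of the single island with most overlap lay within 600 bp in 16.9% and 16.5%. Linking up to 250 kb gave 48.6% and 49.2% with a neighbour, and up to 1 Mb 65.2% and 68.5%. Without chromosomes 2, 10 and 11, a setting chosen after seeing the data, 257 and 224 domains were left, and 100% of day 0 domains were met. These moves follow from the settings' construction for numbers and widths, and for the others the cause was not tested. No paired analysis was possible because each group has 1 library, and for the same reason no replicate could be left out. Genes in domains were not run.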

Other observations

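The joint loci with the largest differences in covered length were picked after their values were seen and are given as values. On chromosome 5, chr5:112020601-112177200 had 54.6 kb in 6 islands at day 5 and 157 kb in 1 island at day 0. On chromosome 8 both directions occurred close together. At chr8:124563001-124681800, 115 kb in 3 islands were covered at day 5 and 63.0 kb in 9 islands at day 0, while at chr8:125152201-125280600 the values were 54.0 kb and 120.0 kb, in 4 islands each. At chr8:11314201-11434800, within the cluster of chromosome 8 described above, 37.2 kb were covered at day 5 and 119 kb at day 0.

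The joint loci of greatest span were alike at both days in covered length. At chr1:92005201-92341800, 324 kb were covered at day 5 and 328 kb at day 0, with both outer borders in the same windows and relative log2 density at -0.11. At chr16:29730001-30063000 the values were 311 and 320 kb, again with both outer borders in the same windows and a relative log2 density of -0.21. At chr13:98092201-98422800, 328 kb in 2 islands at day 5 stood against 314 kb in 7 islands at day 0, at equal relative density.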
